A study of Mus musculus with 65 samples.

Results

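The aminoacyl-tRNA synthetases join each amino acid to its tRNA, and 35 genes that encode them were followed through primary mouse neural stem cells during ageing, induction of reprogramming factors and differentiation. The members were taken by name: a feature of the deposited count table belonged to the set when its Ensembl identifier carried the symbol of a synthetase in GENCODE release M21, whatever its measured values. All 35 symbols were found among 31057 features, 19 for the cytosolic enzymes or their subunits and 16 for the mitochondrial enzymes, whose symbols end in 2. Every member had at least 226 counts in every library, and all 35 passed the filter on low counts in every comparison.

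All 65 libraries came from neural stem cells of the adult subventricular zone of iOSKM mice, which carry the reprogramming factors Oct4, Sox2, Klf4 and c-Myc under doxycycline control, so the untreated cells carried the cassette as well. The cells were primary cultures, from 4 old mice (25 months) and 5 young mice (3 to 4 months), and each animal gave 1 library to each condition of its age. Old cells were sampled in stem cell medium, with EGF and bFGF, at 6, 18 and 48 h with doxycycline at 2 µg/ml and at 18 h without it. They were also sampled at 6, 18 and 48 h in differentiation medium, which lacks both growth factors, with and without doxycycline. Young cells were sampled at 18 h in stem cell medium with and without doxycycline, and at 6, 18 and 48 h in differentiation medium without it. Untreated cells in stem cell medium at 6 and 48 h were not analysed here, and the labels state neither from what event the hours in stem cell medium were counted nor how long doxycycline had been present. Each group is named below by its age, medium, hours and doxycycline.

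Cytosolic synthetases charge the tRNAs used by the ribosomes of the cytoplasm, and the mitochondrial enzymes, encoded in the nucleus and imported, charge those used to make the few proteins of the mitochondrial genome. Gars and Kars each encode both the cytosolic and the mitochondrial form, Eprs carries the glutamyl and prolyl activities in 1 protein, and Farsa and Farsb are the subunits of the phenylalanyl enzyme. Mammalian mitochondria have no separate glutaminyl synthetase and make their glutaminyl-tRNA from glutamyl-tRNA by the amidotransferase of Qrsl1, Gatb and Gatc. Several cytosolic synthetase genes are known targets of ATF4, the transcription factor of the integrated stress response, which binds a composite C/EBP-ATF element, and Myc, which binds E-boxes, is known to raise genes of protein synthesis.

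The promoters of the members were searched for the letters of the composite C/EBP-ATF element, which were picked with the changes given below known. Whether ATF4 or any other factor acts through these promoters in these cells was not tested. RefSeq promoters of GRCm38.p6, from 250 bases before to 50 bases after the start site, were held for 26 of the 35 members, 12 cytosolic and 14 mitochondrial. The letters TGATGNAA were searched on both strands, where N is any base and the reverse strand reads TTNCATCA. They were found in 5 of 12 cytosolic members (41.67%) and in 0 of 14 mitochondrial members, against 4.51% of 27025 genes with a promoter in the same table. The windows below lie on chr8:111033700-111033767 and chr8:111033821-111033871 (Aars, plus strand), chr6:55037941-55038008 (Gars, plus), chr13:49682107-49682159 (Iars, plus), chr15:11399636-11399703 (Tars, minus) and chr4:129189876-129189932 (Yars, plus). They are written 5′ to 3′ on the strand of the gene, with the matching letters in capitals.
Aars: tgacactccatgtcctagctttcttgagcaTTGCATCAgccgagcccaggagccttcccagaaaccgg
Aars, second match: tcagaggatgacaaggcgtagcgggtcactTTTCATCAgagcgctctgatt
Gars: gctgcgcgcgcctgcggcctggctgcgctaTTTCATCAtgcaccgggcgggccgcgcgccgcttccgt
Iars: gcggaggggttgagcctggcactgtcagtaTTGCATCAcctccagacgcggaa
Tars: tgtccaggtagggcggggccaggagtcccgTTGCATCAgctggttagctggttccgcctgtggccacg
Yars: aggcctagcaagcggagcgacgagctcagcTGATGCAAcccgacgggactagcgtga

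The E-box letters CACGTG, which neither hold nor are held in the composite letters, stood in 4 of 12 cytosolic members (Aars, Farsb, Iars and Tars, 33.33%) and in 1 of 14 mitochondrial members (Ears2, 7.14%), against 8.09% of those genes. The NRF1 element was in no member promoter searched and in that of 1.07% of those genes. A match of letters is a description and not a binding site, and no match says only that these letters are not in this window.

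Library totals lay between 56483730 and 116835539 counts. The lowest count of any member was 226, for Ears2, and counting error is larger for such members than for the abundant ones. Levels are CPM, counts relative to a library total scaled by its TMM factor, and where genes are compared they are per kilobase of exon. Pou5f1, the Oct4 gene, checks the induction: in old cells at 18 h it averaged 0.401 ± 0.13 CPM with doxycycline and 0.16 ± 0.0588 CPM without (SD, n = 4 each), and in young cells 0.786 ± 0.354 CPM with and 0.205 ± 0.135 CPM without (SD, n = 5 each). Its levels were low throughout, and its old groups overlapped slightly. Cycling markers (Mki67, Top2a, Ccnb1 and Cdk1) averaged 1460, 23.7 and 16 CPM in sum at 6, 18 and 48 h of differentiation of untreated old cells, against 1050 CPM in stem cell medium. In untreated young cells they averaged 1290, 29.1 and 17.4 CPM, against 874 CPM. Summed astrocyte markers averaged 1730, 2800 and 3970 CPM at 6, 18 and 48 h of differentiation of untreated old cells, against 876 CPM in stem cell medium. Summed oligodendrocyte-lineage markers averaged 990, 1730 and 4480 CPM in the same groups, against 970 CPM, and neuroblast markers 101, 140 and 241 CPM, against 29.4 CPM. The part of cycling and of these cell types in the results was not tested.

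Markers of microglia, endothelium, mural cells and ependyma were uneven. Of the microglial markers, Cx3cr1 and Aif1 were at most 0.0487 and 0.116 CPM in any library, while P2ry12 reached 3.08 and Csf1r 11.2 CPM. Of the endothelial markers, Cldn5, Cdh5 and Pecam1 were at most 0.0903, 0.192 and 0.506 CPM, and Kdr reached 10.2 CPM. Of the mural markers, Kcnj8 and Rgs5 were at most 0.105 and 0.738 CPM, while Pdgfrb reached 7.27 and Acta2 168 CPM. Of the ependymal markers, Tmem212 and Ccdc153 were at most 0.0316 and 0.942 CPM, and Foxj1 lay between 7.3 and 71.6 CPM. Summed over each list, the libraries ranged between 4.97 and 12.2 CPM (microglia), 1.47 and 10.5 (endothelium), 1.56 and 169 (mural cells) and 7.45 and 71.8 (ependyma).

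By the median member, the cytosolic set was the more abundant and the more variable. Per kilobase, the mean level over the 15 groups ranged between 7.39 (Cars) and 66.4 (Nars) CPM among the cytosolic members, with a median of 25.4. Among the mitochondrial members it ranged between 2.08 (Ears2) and 103 (Lars2), with a median of 3.825. The highest group mean was 1.84 to 6.7 times the lowest for the cytosolic members (median 3.76) and 1.22 to 7.26 times for the mitochondrial members (median 1.865). For 17 of 19 cytosolic members and 10 of 16 mitochondrial members the highest group was old cells with doxycycline at 6 h in stem cell medium. The cytosolic exceptions were Qars, highest in old cells with doxycycline at 6 h of differentiation, and Dars, highest in old cells with doxycycline at 48 h of differentiation.

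Summed over the 19 cytosolic members, old cells with doxycycline in stem cell medium had 4760 ± 198 CPM at 6 h, 3360 ± 83 CPM at 18 h and 2390 ± 57.2 CPM at 48 h (SD, n = 4 each). Untreated old cells had 1670 ± 35.6, 1410 ± 33 and 1660 ± 15 CPM at 6, 18 and 48 h of differentiation, against 3340 ± 77.2 CPM at 18 h in stem cell medium (SD, n = 4 each). Untreated young cells had 1590 ± 77.3, 1380 ± 40.2 and 1560 ± 55.5 CPM at the same times of differentiation, against 2940 ± 61.9 CPM in stem cell medium (SD, n = 5 each). No library in differentiation medium reached the level of any library in stem cell medium. The 15 mitochondrial members other than Lars2 summed to 353 ± 7.35, 336 ± 6.76 and 368 ± 0.957 CPM in untreated old cells at 6, 18 and 48 h of differentiation, against 472 ± 9.91 CPM in stem cell medium. These sums too lay lower in every differentiation library than in any library in stem cell medium, by a smaller factor. The ratio of the median cytosolic to the median mitochondrial level per kilobase was taken with Lars2 included. It averaged 6.22, 4.9 and 5.69 in untreated old cells at those times of differentiation, against 8.04 in stem cell medium. In bulk RNA, fewer cells of a type and less RNA per cell cannot be told apart.

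**Figure D1:**
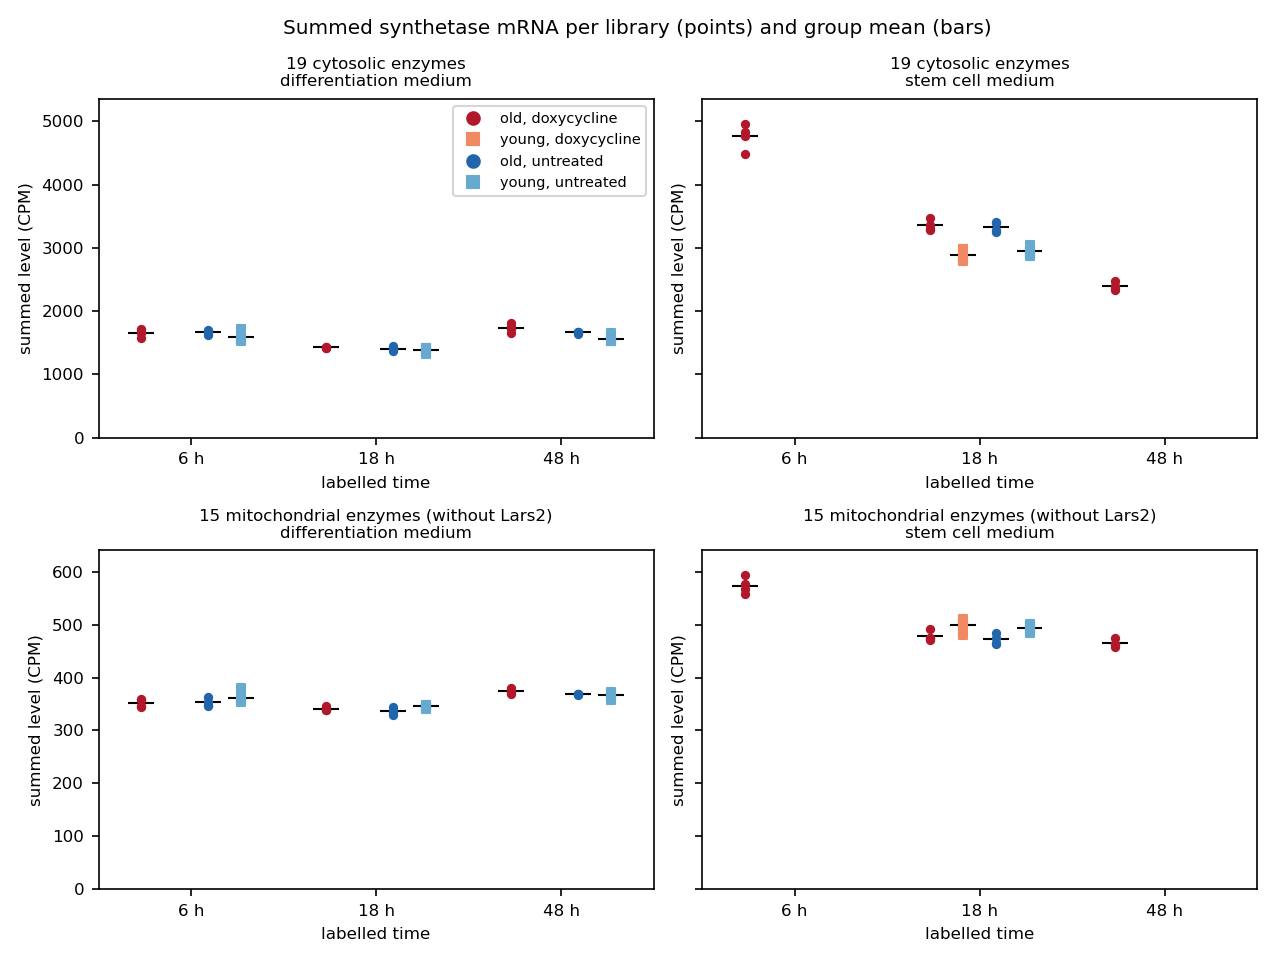
Summed CPM of the 19 cytosolic members (top) and of the 15 mitochondrial members without Lars2 (bottom) in each library, by hours (horizontal axis), with differentiation medium on the left and stem cell medium on the right. Points are libraries and colours mark age and doxycycline. The cytosolic sum averaged 4760 CPM at 6 h in stem cell medium with doxycycline and between 1380 and 1740 CPM in differentiation medium.

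Nearly the whole cytosolic set was lower at 6 h of differentiation than in stem cell medium labelled 18 h. Medium and labelled hours both differ in this comparison, and their effects cannot be told apart. In old cells, 18 of 19 cytosolic members were lower and 1 was higher at 6 h of differentiation than at 18 h in stem cell medium (edgeR quasi-likelihood test, Benjamini-Hochberg adjusted p under 0.05 over all genes), with a median log2 fold change of -1.04. Of all 16972 genes tested in that comparison 37.4% were lower and 38.2% were higher, with a median of 0.02. In young cells, 18 were again lower and 1 higher, with a median of -0.89, where 36.5% of all genes were lower and 38.4% higher, with a median of 0.03. The single member that rose in both ages was Qars.

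Iars, the isoleucyl enzyme, shows the pattern library by library. Iars stood at 53.9, 56.3, 56.6 and 57.8 CPM in old cells at 6 h of differentiation, against 167, 165, 170 and 179 CPM in stem cell medium. In young cells it stood at 49.4, 51.7, 53.7, 46.7 and 49.7 CPM, against 149, 149, 155, 152 and 147 CPM. Libraries within a group lay close together and the groups were far apart. The log2 fold change was -1.59 ± 0.04 (SE; edgeR, adjusted p = 1.09e-11) in old cells and -1.57 ± 0.04 (adjusted p = 2.89e-12) in young cells. Vars, the valyl enzyme, fell by 1.63 ± 0.04 in old and 1.56 ± 0.06 in young cells on the log2 scale. Gars, the glycyl enzyme of both compartments, fell by 1.47 ± 0.03 and 1.36 ± 0.07. The smallest falls were those of Sars, the seryl enzyme, at -0.51 and -0.35, and of Kars, the lysyl enzyme of both compartments, at -0.55 and -0.50.

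Qars, the glutaminyl enzyme, moved the other way. At 6 h of differentiation Qars stood at 79.1, 69.4, 73.7 and 70 CPM in old cells, against 59.7, 55.9, 60.8 and 59.8 CPM in stem cell medium. In young cells it stood at 73.6, 74.8, 74.1, 79.1 and 74.4 CPM, against 60.5, 59.8, 58.5, 61.8 and 66.7 CPM. The groups did not overlap in either age. The log2 fold change was 0.31 ± 0.05 (edgeR, adjusted p = 1.14e-04) in old cells and 0.30 ± 0.04 (adjusted p = 1.45e-05) in young cells.

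The mitochondrial set split. In old cells 8 of 16 members were lower and none was higher at 6 h of differentiation, with a median log2 fold change of -0.13 (-0.17 without Lars2). In young cells 11 were lower and 1 was higher, with a median of -0.26 (-0.31 without Lars2). The shares of all genes were 37.4% lower and 38.2% higher in old cells, and 36.5% and 38.4% in young cells. The members that fell most fell as far as the cytosolic ones. Ears2, the glutamyl enzyme, stood at 3.76, 3.07, 3.87 and 4.16 CPM in old cells at 6 h of differentiation, against 15.5, 15.1, 14.9 and 14.8 CPM in stem cell medium. In young cells it stood at 3.29, 3.26, 4.62, 3.32 and 3.43 CPM, against 13.6, 13.9, 16.1, 14.3 and 14 CPM. All values in differentiation lay far below all values in stem cell medium. The log2 fold change was -2.01 ± 0.09 (edgeR, adjusted p = 1.43e-09) in old cells and -1.99 ± 0.10 (adjusted p = 5.66e-10) in young cells, a larger fall than that of any cytosolic member. The annotated Ears2 gene overlaps Ubfd1 on the opposite strand.

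Yars2, the tyrosyl enzyme, fell by 1.47 ± 0.06 in old and 1.43 ± 0.07 in young cells. Mars2, the methionyl enzyme, fell by 1.21 ± 0.07 and 1.19 ± 0.06. Aars2, the alanyl enzyme, was the 1 mitochondrial member that rose in young cells: 21.8, 21.2, 21.2, 21.7 and 21 CPM at 6 h of differentiation, against 18.4, 18.7, 18.8, 18.1 and 19.5 CPM in stem cell medium, a log2 fold change of 0.21 ± 0.04 (edgeR, adjusted p = 4.73e-04). Its groups did not overlap in young cells. In old cells the change of Aars2 was 0.04 and did not pass the test. Between the ages, 26 members were lower and 1 was higher in both, 4 were called in young cells only, and no member was called in opposite directions. Of all genes 37.4% were lower in old and 36.5% in young cells, and the share called alike in both ages was not counted.

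The histidyl pair puts the contrast on neighbouring genes. Hars (cytosolic, minus strand) and Hars2 (mitochondrial, plus strand) lie head to head on chromosome 18, and the annotated ends of the transcripts overlap, so reads in the overlap may be shared between them if strand was not used in counting. Hars stood at 69.3, 67.4, 69.7 and 68.7 CPM in old cells at 6 h of differentiation, against 109, 106, 109 and 108 CPM in stem cell medium. Hars2 stood at 31.8, 30.9, 33.1 and 32.6 CPM, against 31.1, 28.9, 31.3 and 30.1 CPM. The Hars groups were far apart and the Hars2 groups overlapped. The log2 fold change of Hars was -0.65 ± 0.03 (edgeR, adjusted p = 2.55e-09) in old cells, and that of Hars2 was 0.09 ± 0.04 (adjusted p = 0.0965). In young cells the values were -0.56 ± 0.04 for Hars and 0.05 ± 0.05 for Hars2 (edgeR, adjusted p = 0.314 for Hars2). Hars2 lay between 28.8 and 39.6 CPM in all 65 libraries.

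The partners of the synthetases were read from lists chosen by name. Of the 3 scaffold proteins that hold several cytosolic synthetases in a complex, Eef1e1 fell by 2.19 ± 0.04 in old and 2.20 ± 0.07 in young cells at 6 h of differentiation, and Aimp2 fell by 1.28 ± 0.05 and 1.2 ± 0.05. Aimp1, the third, had log2 fold changes of -0.07 ± 0.04 (edgeR, adjusted p = 0.134) and -0.02 ± 0.05 (adjusted p = 0.757). Of 15 genes of tRNA processing, export and delivery, 11 were lower and none higher in old cells, and 12 were lower and 1 higher in young cells. Of 18 mitochondrial translation partners, 9 were lower and 5 higher in old cells, and 9 were lower and 4 higher in young cells. Of all genes tested, 37.4% were lower and 38.2% higher in old cells, and 36.5% were lower and 38.4% higher in young cells.

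Among those partners, Qrsl1, the catalytic subunit of the mitochondrial glutaminyl route, fell by 0.91 ± 0.07 in old and 0.95 ± 0.08 in young cells, while its partner subunit Gatb rose by 0.29 ± 0.06 and 0.27 ± 0.05. Of 20 genes of the integrated stress response, 17 were lower and 3 higher in old cells, and 15 were lower and 3 higher in young cells. Atf4 itself fell by 1.43 ± 0.04 and 1.15 ± 0.05. Asns, its asparagine synthetase target, fell by 1.89 ± 0.05 and 1.68 ± 0.08. Of 20 genes of amino acid uptake and synthesis, 13 were lower and 4 higher in old cells, and 13 were lower and 5 higher in young cells. For both lists the shares of all genes were again 37.4% lower and 38.2% higher in old cells, and 36.5% and 38.4% in young cells. Myc changed by -3.34 ± 0.05 in old and -3.19 ± 0.16 in young cells, and whether its counts also hold reads of the cassette was not tested.

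**Figure D2:**
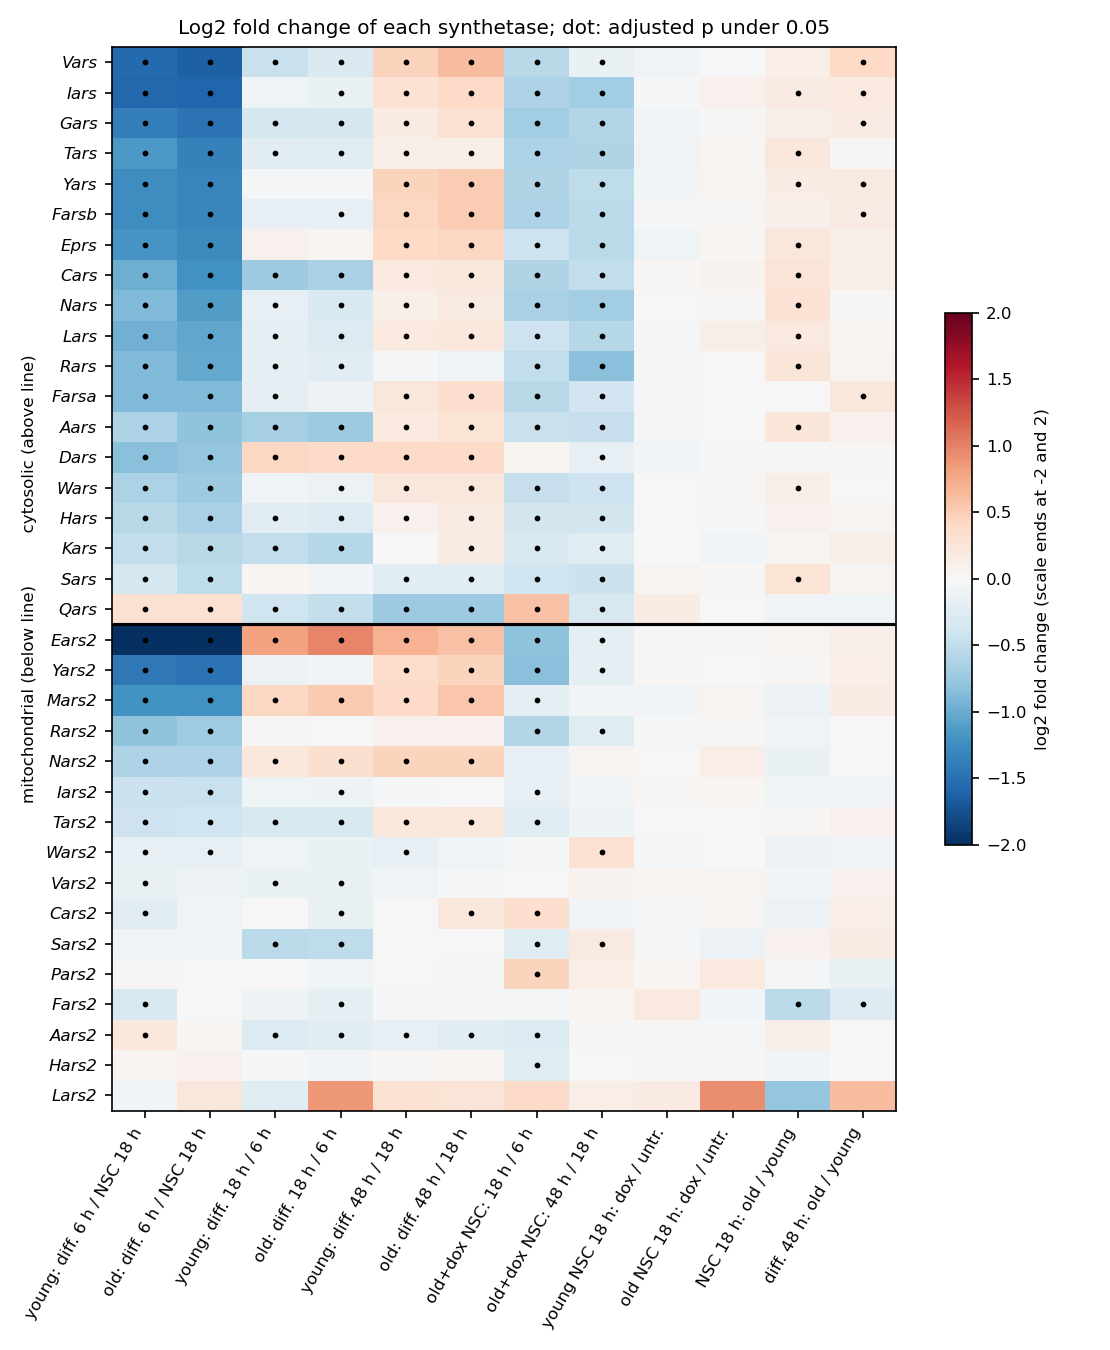
Log2 fold change of each of the 35 members (rows, cytosolic above mitochondrial) in 12 comparisons (columns), on a colour scale cut at -2 and 2, with a dot where the adjusted p was under 0.05. The columns of differentiation against stem cell medium are lower for almost every cytosolic member, and Qars stands apart at 6 h, with 0.31 in old and 0.30 in young cells.

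Later in differentiation the members followed different courses. At 18 h against 6 h, 14 cytosolic members were lower and 1 higher in old cells (background 33.6% of all genes lower and 34.1% higher), and 12 were lower and 1 higher in young cells (32.4% lower and 34.0% higher). Aars, the alanyl enzyme, changed by -0.72 ± 0.04 in old and -0.66 ± 0.04 in young cells, Cars, the cysteinyl enzyme, by -0.65 ± 0.06 and -0.73 ± 0.06, and Kars by -0.57 ± 0.03 and -0.50 ± 0.04. The annotated Aars gene overlaps Exosc6 on the same strand, so reads in the overlap cannot be told apart by strand. The member that rose was Dars, the aspartyl enzyme. Dars stood at 123, 119, 116 and 125 CPM in old cells at 18 h of differentiation, against 91.2, 90.8, 91.4 and 102 CPM at 6 h, and the groups did not overlap. Its log2 fold change was 0.38 ± 0.04 (edgeR, adjusted p = 4.28e-06) in old cells and 0.42 ± 0.05 (adjusted p = 3.67e-06) in young cells.

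Among the mitochondrial members, 3 were higher and 7 lower at 18 h than at 6 h in old cells, and 3 were higher and 4 lower in young cells. The shares of all genes were 34.1% higher and 33.6% lower in old cells, and 34.0% and 32.4% in young cells. The 3 that rose in both ages were Ears2 (0.98 ± 0.10 in old, 0.81 ± 0.11 in young cells), Mars2 (0.53 ± 0.07 and 0.41 ± 0.06) and Nars2, the asparaginyl enzyme (0.32 ± 0.07 and 0.21 ± 0.06). The Nars2 call in young cells was lost without replicate 2 (edgeR, adjusted p = 0.065) or replicate 5 (0.0566). Sars2, the seryl enzyme, fell by 0.51 ± 0.06 and 0.54 ± 0.06, the threonyl enzyme gene Tars2 by 0.30 ± 0.05 and 0.31 ± 0.05, and Aars2 by 0.21 ± 0.05 and 0.28 ± 0.04. Ears2 and Mars2 were thus among the members that fell most by 6 h and rose afterwards.

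At 48 h against 18 h most of the cytosolic set rose. In old cells 16 members were higher and 2 lower (28.0% of all genes higher and 28.5% lower), and in young cells 15 were higher and 2 lower (27.7% higher and 29.2% lower). Vars rose by 0.61 ± 0.03 in old and 0.46 ± 0.03 in young cells, Yars, the tyrosyl enzyme, by 0.51 ± 0.04 and 0.44 ± 0.03, and Farsb by 0.51 ± 0.05 and 0.41 ± 0.05. The 2 that fell were Sars (-0.21 ± 0.03 and -0.22 ± 0.04) and Qars. Qars stood at 32.7, 29.4, 31.3 and 35.7 CPM in old cells at 48 h, against 54.7, 49.2, 53.2 and 52.3 CPM at 18 h, with no overlap. The log2 fold change of Qars was -0.72 ± 0.06 (edgeR, adjusted p = 1.85e-07) in old cells and -0.73 ± 0.04 (adjusted p = 2.03e-08) in young cells.

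Of the mitochondrial members, 6 were higher and 1 lower at 48 h than at 18 h in old cells, and 5 were higher and 2 lower in young cells. The shares of all genes were 28.0% higher and 28.5% lower in old cells, and 27.7% and 29.2% in young cells. Ears2 rose by 0.58 ± 0.07 and 0.70 ± 0.07, Mars2 by 0.55 ± 0.06 and 0.39 ± 0.06, and Nars2 by 0.45 ± 0.07 and 0.44 ± 0.06. Aars2 fell by 0.22 ± 0.06 and 0.17 ± 0.05. The tryptophanyl enzyme gene Wars2 fell by 0.16 ± 0.05 in young cells, a call that was lost without replicate 1 (edgeR, adjusted p = 0.0972) or replicate 2 (0.0604). Over the course in untreated old cells, Ears2 averaged 3.71, 7.31 and 11 CPM at 6, 18 and 48 h of differentiation, and Yars2 averaged 8.33, 8 and 11 CPM. In stem cell medium the means were 15.1 CPM for Ears2 and 23.2 CPM for Yars2, so Ears2 came closer to that level by 48 h than Yars2 did.

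**Figure D3:**
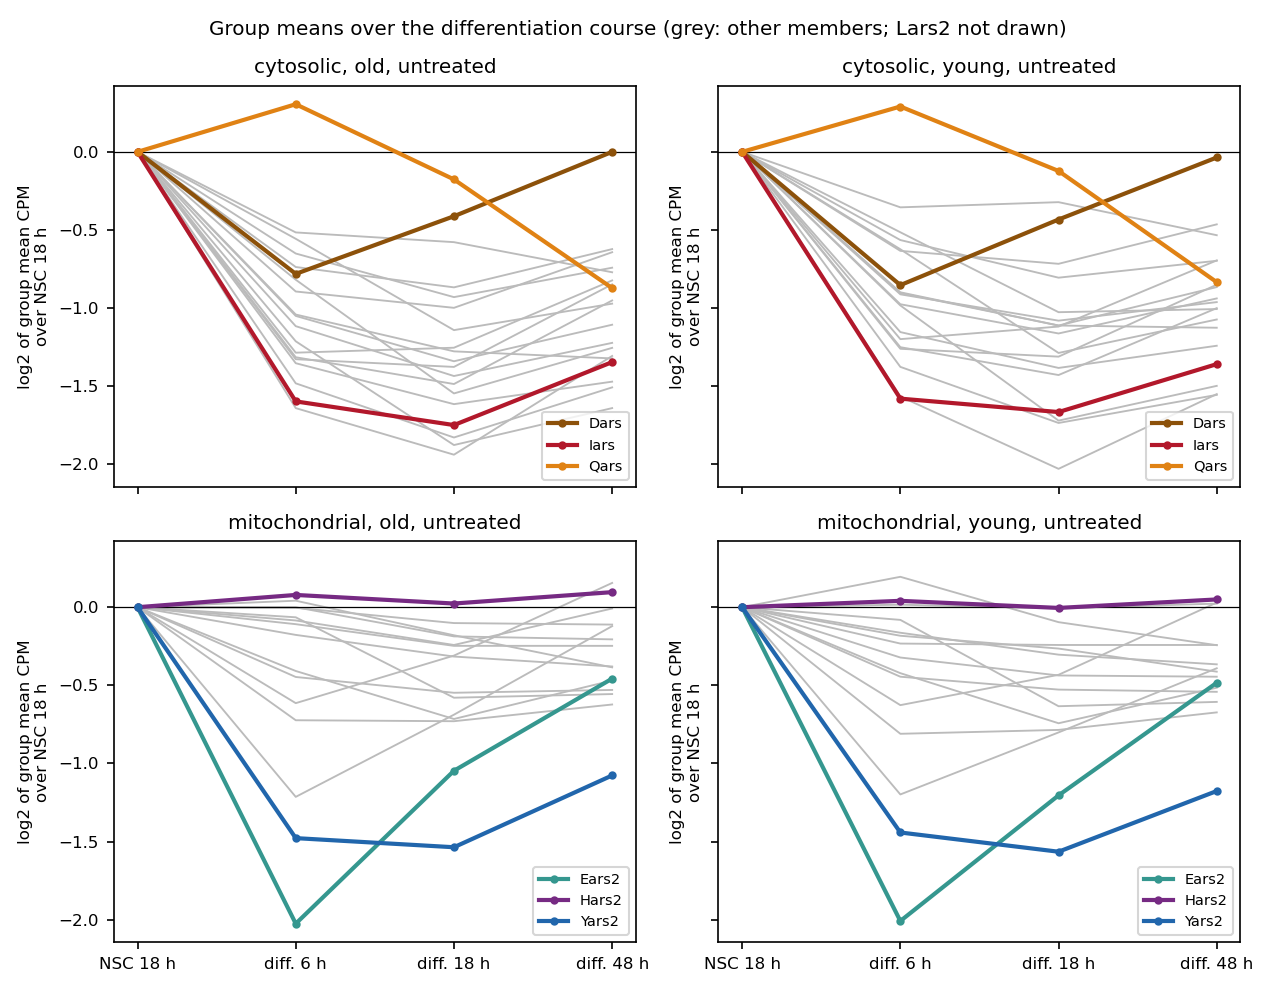
Log2 of the group mean over the mean at 18 h in stem cell medium (vertical axis) at that baseline and at 6, 18 and 48 h of differentiation (horizontal axis) in untreated cells, old on the left and young on the right, with cytosolic members above mitochondrial ones and Lars2 left out. At 6 and 48 h both the medium and the labelled hours differ from the baseline. Grey lines are members and coloured lines mark Iars, Qars, Dars, Yars2, Ears2 and Hars2. Ears2 is lowest at 6 h and climbs, Iars stays low, Qars lies above 0 at 6 h and far below it at 48 h, and Hars2 stays near 0.

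At 18 h of differentiation against the libraries labelled 18 h in stem cell medium, the cytosolic set was again lower. The same stem cell medium libraries served as the baseline as at 6 h. Of the 19 cytosolic members, all were lower in old cells (40.5% of all genes lower), and 18 were lower and none higher in young cells (40.3% lower). Vars changed by -1.90 ± 0.04 in old and -1.99 ± 0.04 in young cells, Cars by -1.84 ± 0.05 and -1.68 ± 0.04, and Gars by -1.79 ± 0.04 and -1.69 ± 0.04. Among the mitochondrial members 12 were lower and none higher in either age, led by Yars2 at -1.5 ± 0.06 and -1.53 ± 0.06. Of the 35 members, 29 were lower in both ages, and the share of all genes lower in both was not counted.

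Old cells with doxycycline were sampled at 3 times in stem cell medium, without untreated libraries at 6 and 48 h, so the effect of time cannot be told apart from that of the hours of doxycycline. In these libraries summed mural markers lay between 91 and 169 CPM at 6 h, 22.7 and 44.2 CPM at 18 h and 1.95 and 2.8 CPM at 48 h, and cycling markers between 728 and 993, 768 and 1080, and 1520 and 1690 CPM. Their part in the changes below was not tested. At 18 h against 6 h, 17 cytosolic members were lower and 1 higher (30.7% of all genes lower and 30.6% higher), with a median log2 fold change of -0.50. Gars stood at 246, 251, 249 and 262 CPM at 18 h, against 385, 422, 433 and 410 CPM at 6 h, with no overlap, and changed by -0.69 ± 0.04 (edgeR, adjusted p = 1.54e-07). Nars, the asparaginyl enzyme, changed by -0.65 ± 0.04 and Tars, the threonyl enzyme, by -0.63 ± 0.04.

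Qars rose over the same interval, to 61.5, 56.8, 59.9 and 57.9 CPM at 18 h, against 38.4, 40, 39.7 and 42.5 CPM at 6 h. Its log2 fold change was 0.58 ± 0.04 (edgeR, adjusted p = 1.04e-06). Of the mitochondrial members, 9 were lower and 2 higher (30.7% of all genes lower and 30.6% higher). Yars2 fell to 23.1, 22.2, 22.6 and 24.2 CPM at 18 h, against 41.9, 39.1, 42.2 and 44.4 CPM at 6 h, a log2 fold change of -0.84 ± 0.05 (edgeR, adjusted p = 2.51e-07). Ears2 changed by -0.80 ± 0.05 and Rars2, the arginyl enzyme, by -0.59 ± 0.04. The members that rose were Pars2, the prolyl enzyme (0.44 ± 0.07), and the cysteinyl enzyme gene Cars2 (0.33 ± 0.05). Atf4 fell by 1.16 ± 0.04 and Eef1e1 by 0.97 ± 0.05 over the same hours.

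At 48 h against 18 h in stem cell medium with doxycycline, all 19 cytosolic members were lower (26.3% of all genes lower and 26.0% higher), again with a median of -0.50. Rars, the arginyl enzyme, stood at 87, 86.3, 81.2 and 89.6 CPM at 48 h, against 158, 147, 158 and 154 CPM at 18 h, and changed by -0.83 ± 0.04 (edgeR, adjusted p = 3.70e-08). Iars and Nars each changed by -0.70. Only 3 mitochondrial members were lower, Rars2 (-0.25 ± 0.04), Ears2 (-0.20 ± 0.05) and Yars2 (-0.18 ± 0.05), and 2 were higher, Wars2 (0.30 ± 0.06) and Sars2 (0.18 ± 0.06). The Sars2 call was lost without replicate 1 (adjusted p = 0.11), replicate 3 (0.121) or replicate 4 (0.125) by the same edgeR test.

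With doxycycline the media were compared at 3 times labelled with the same hours, although the labels do not show that the hours, or the exposure to doxycycline, were counted alike in both media. At 6 h, 18 cytosolic members were lower and 1 higher in differentiation medium than in stem cell medium (39.3% of all genes lower and 41.4% higher), with a median log2 fold change of -1.55. Iars stood at 53.4, 50.3, 54.5 and 56.4 CPM in differentiation medium, against 271, 277, 297 and 283 CPM in stem cell medium, far apart, and changed by -2.37 ± 0.05 (edgeR, adjusted p = 1.11e-12). Vars and Gars each changed by -2.19, and Qars by 0.94 ± 0.06. Of the mitochondrial members 12 were lower and 2 higher. Ears2 changed by -2.84 ± 0.07, Yars2 by -2.37 ± 0.07 and Mars2 by -1.5 ± 0.05, while Pars2 (0.31 ± 0.08) and Cars2 (0.19 ± 0.05) were higher.

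At 18 h with doxycycline, 18 cytosolic and 13 mitochondrial members were lower in differentiation than in stem cell medium and none was higher (40.0% of all genes lower), led by Cars (-1.95 ± 0.05) and Yars2 (-1.41 ± 0.06). At 48 h, 17 cytosolic members were lower and 1 higher (37.1% lower and 39.8% higher) and 10 mitochondrial members were lower, but the medians were -0.43 and -0.26. Vars and Cars each changed by -1.10 at 48 h. Dars stood at 159, 172, 163 and 167 CPM in differentiation medium, against 132, 139, 135 and 149 CPM in stem cell medium, a rise of 0.29 ± 0.04 on the log2 scale with no overlap (edgeR, adjusted p = 3.27e-05). Among the mitochondrial members Yars2 (-0.82 ± 0.06), Wars2 (-0.64 ± 0.06) and Sars2 (-0.46 ± 0.07) changed most. These differences were not set against each other in a test, and those at different hours share no libraries.

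Much of the cytosolic set was higher in old than in young cells in stem cell medium. In untreated cells at 18 h, 11 of 19 cytosolic members were higher in old than in young cells and none was lower (3.09% of all genes were higher and 2.86% lower), with a median log2 fold change of 0.15. None of the 16 mitochondrial members was higher and 1 was lower, with a median of -0.07. The 11 were Nars, Sars, Cars, Aars, Rars, Eprs, Tars, Lars, Iars, Yars and Wars, with log2 fold changes between 0.12 (Wars, the tryptophanyl enzyme) and 0.29 (Nars).

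Nars stood at 263, 268, 286 and 277 CPM in old cells, against 221, 216, 234, 221 and 215 CPM in young cells. Sars stood at 193, 203, 216 and 199 CPM in old cells, against 166, 162, 169, 165 and 165 CPM in young cells. Every old library was above every young library for both genes. The log2 fold changes were 0.29 ± 0.03 for Nars and 0.28 ± 0.03 for Sars (edgeR, adjusted p = 0.00201 for each). Cars stood at 76.8, 78.3, 82.6 and 83.7 CPM in old cells, against 68.5, 64.7, 70.8, 68.6 and 63.4 CPM in young cells, a change of 0.25 ± 0.04 (adjusted p = 0.00861 by edgeR), again with no overlap.

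Fars2, the mitochondrial phenylalanyl enzyme, was the member lower with age. Fars2 stood at 17.7, 16.5, 17.5 and 17.4 CPM in old cells, against 25.5, 20.4, 20.6, 26.6 and 29.2 CPM in young cells. The groups did not overlap, and the young libraries were the more spread. Its log2 fold change was -0.52 ± 0.10 (edgeR, adjusted p = 0.0167), and the adjusted p rose to 0.0544 without old replicate 3, 0.0519 without old replicate 4 and 0.0525 without young replicate 1. The annotated Fars2 gene overlaps Lyrm4 and Nrn1 on the opposite strand.

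Genes of the integrated stress response were higher in the same old libraries. Of its 20 listed genes 9 were higher and none lower, with a median log2 fold change of 0.18. Of the 20 genes of amino acid uptake and synthesis 13 were higher and none lower, with a median of 0.23. Among all genes tested, 3.09% were higher and 2.86% lower. Atf4 stood at 206, 207, 213 and 207 CPM in old cells, against 168, 166, 176, 170 and 162 CPM in young cells, a change of 0.30 ± 0.03 (edgeR, adjusted p = 9.51e-04). Asns changed by 0.40 ± 0.05, Ddit3 by 0.58 ± 0.07, Chac1 by 1 ± 0.1 and Trib3, an inhibitor of ATF4, by 1.05 ± 0.18. No mitochondrial translation partner was called, and Myc changed by 0.06 ± 0.04 (edgeR, adjusted p = 0.429). Cycling markers summed to 1050 ± 189 CPM in old cells (SD, n = 4) and 874 ± 128 CPM in young cells (SD, n = 5), and astrocyte markers summed to between 815 and 933 CPM in old cells and between 935 and 1090 CPM in young cells. Their part in the difference was not tested.

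**Figure D4:**
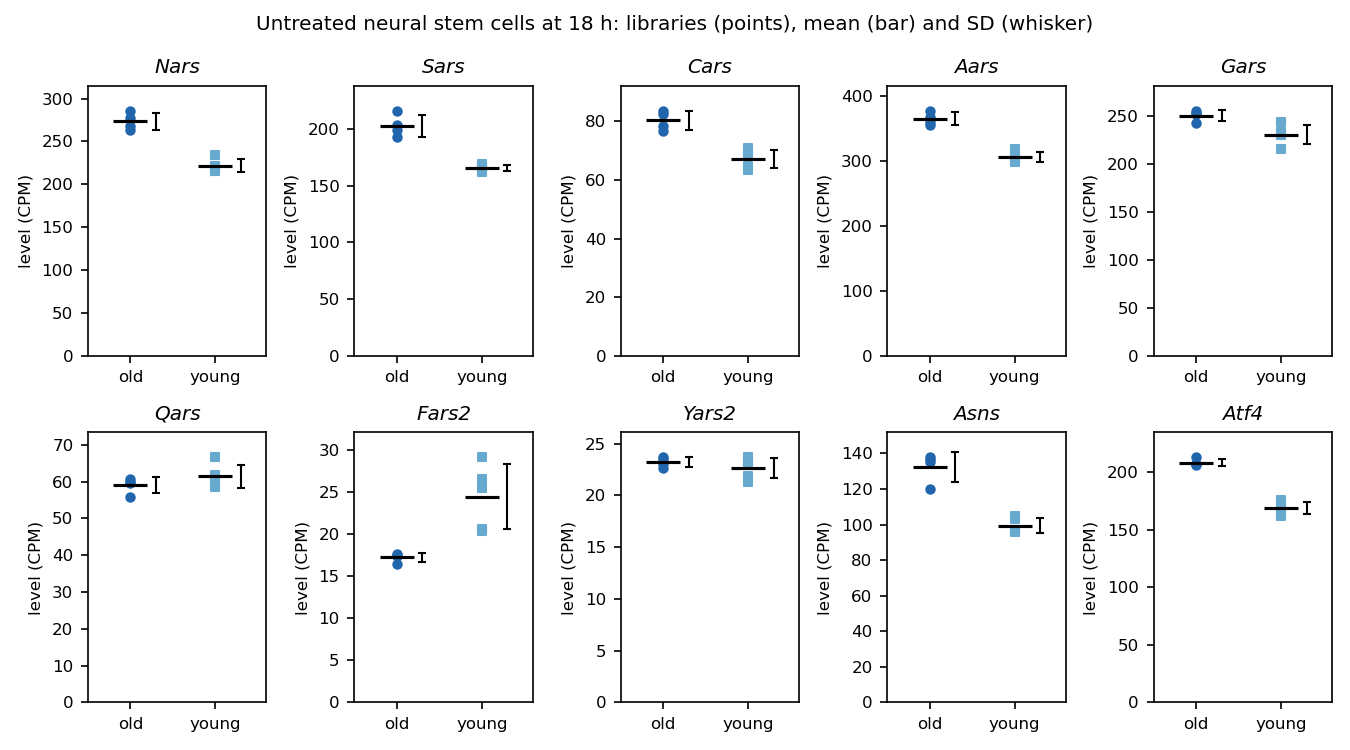
CPM of 8 synthetase genes, Asns and Atf4 in untreated cells at 18 h in stem cell medium, old (left in each panel) and young (right), with points for libraries and the mean and SD. Nars, Sars, Cars and Aars lie higher in all 4 old libraries than in any of the 5 young ones, and Fars2 lies lower.

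The ages were compared again at each time of differentiation. At 6 h no member was called by edgeR between old and young cells, where 0.710% of all genes were higher and 0.721% lower. At an unadjusted p under 0.05 by edgeR there were 6 of 35 members, 4 of them cytosolic, and 13.9% of all genes. DESeq2 called 2 members, and the share of all genes that it called was not counted. At 18 h, Vars and Farsa were higher in old cells (2.85% of all genes higher). Vars stood at 46.6, 47.1, 47.9 and 48.3 CPM in old cells, against 38.9, 41, 40.2, 39.7 and 41.2 CPM in young cells, with no overlap, and changed by 0.26 ± 0.04 (edgeR, adjusted p = 0.00202). Farsa changed by 0.13 ± 0.04 (edgeR, adjusted p = 0.0499), and that call was lost without each of 8 of the 9 animals in turn, with adjusted p between 0.0665 and 0.138.

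Marker sums also differed between the ages. Oligodendrocyte-lineage markers summed to between 1550 and 1890 CPM in the old libraries at 18 h, against 1210 to 1460 CPM in the young ones, and to between 3900 and 5080 CPM at 48 h, against 1990 to 3650 CPM. Stem cell markers summed to between 5070 and 5410 CPM in old cells at 18 h, against 5440 to 5960 CPM in young cells, and to between 2890 and 3400 CPM at 48 h, against 3410 to 4700 CPM. The ages did not overlap in these sums, and their part in the age differences at 18 and 48 h was not tested.

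At 48 h, 6 cytosolic members were higher in old cells (5.63% of all genes higher) and Fars2 was lower (5.02% lower). Vars stood at 72.5, 74.2, 76 and 71.8 CPM in old cells, against 53.5, 58.2, 54.8, 56.5 and 57.1 CPM in young cells, the groups well apart, and changed by 0.40 ± 0.03 (edgeR, adjusted p = 7.24e-04). Farsa changed by 0.23 ± 0.03, Iars by 0.20 ± 0.03, Yars by 0.18 ± 0.04, Farsb by 0.17 ± 0.04 and Gars by 0.17 ± 0.04. Fars2 stood at 15.9, 14.1, 16.2 and 13.8 CPM in old cells, against 20, 16.7, 18.2, 17 and 18.1 CPM in young cells, without overlap. Its change was -0.26 ± 0.07 (edgeR, adjusted p = 0.0275), and the adjusted p rose to 0.0735 without young replicate 1, 0.0875 without old replicate 4 and 0.0834 without old replicate 2.

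Of the 11 cytosolic members higher in stem cell medium, Iars and Yars were also higher at 48 h of differentiation. The others included Nars, which changed by 0.03 ± 0.03 at 48 h (edgeR, adjusted p = 0.485). Whether the effect of differentiation differed with age was tested by an interaction term. At 18 h of differentiation against 18 h in stem cell medium, 3 members had a lower interaction (0.604% of all genes did), which means a larger fall in old cells. They were Nars at -0.34 ± 0.05 (edgeR, adjusted p = 0.00517), Aars at -0.25 ± 0.05 (adjusted p = 0.0187) and Sars at -0.24 ± 0.05 (adjusted p = 0.0383).

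Nars stood at 107, 100, 97.1 and 101 CPM in old cells at 18 h of differentiation, against 107, 104, 101, 107 and 103 CPM in young cells, where the ages overlapped, unlike in stem cell medium. With animals as blocks the Sars call was lost (edgeR, adjusted p = 0.0742). It was also lost without old replicate 2, 3 or 4 or young replicate 1, 2 or 4, with adjusted p between 0.083 and 0.191. The Aars call was lost without old replicate 3 or 4 or young replicate 1 or 4, with adjusted p between 0.0525 and 0.115. Atf4 (-0.30 ± 0.06), Asns (-0.40 ± 0.07), Ddit3 (-0.60 ± 0.09) and Chac1 (-1.48 ± 0.18) had lower interactions in the same test. No member had an interaction with age at 6 h against stem cell medium or at 48 h against 18 h by edgeR, where 0.0454% and 0% of all genes were called. At an unadjusted p under 0.05 there were 8 and 5 of the 35 members, and 6.73% and 6.92% of all genes.

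Doxycycline left the synthetases close to their untreated levels at 18 h and during differentiation. In none of 5 comparisons of doxycycline with untreated cells was a member called by edgeR, DESeq2 or limma. Few genes were called at all: by edgeR 0.0180% in old and 0.0361% in young cells at 18 h in stem cell medium, and 0.0294%, 0.0118% and 0.0296% at 6, 18 and 48 h of differentiation. At an unadjusted p under 0.05 there were 3 members in old cells and 2 in young cells at 18 h in stem cell medium, and 0, 0 and 3 in old cells at 6, 18 and 48 h of differentiation. The shares of all genes at that threshold were 8.80% and 14.5% in stem cell medium and 8.85%, 6.69% and 8.83% in differentiation, so the members' counts were near or below that background. Median log2 fold changes of the cytosolic members were 0.02 in old and -0.03 in young cells in stem cell medium, and -0.01, 0.01 and 0.05 at 6, 18 and 48 h of differentiation.

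Since each animal gave a treated and an untreated library, animals were also used as blocks. Then 3 members were higher with doxycycline in old cells, in stem cell medium at 18 h, where 4.18% of all genes were higher. Iars stood at 179, 169, 179 and 194 CPM with doxycycline, against 167, 165, 170 and 179 CPM in the untreated cells of the same old animals. It was higher with doxycycline in all 4 animals, although the groups overlapped, by 0.09 ± 0.02 (edgeR with animals as blocks, adjusted p = 0.00427). Lars, the leucyl enzyme, stood at 202, 217, 219 and 218 CPM with doxycycline, against 185, 197, 211 and 204 CPM untreated, a rise of 0.11 ± 0.02 in the same fit (adjusted p = 8.48e-04). Pars2 changed by 0.20 ± 0.06 (adjusted p = 0.0397).

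In young cells the blocked fit called 2 other members higher. Since 6.85% of all genes were higher in that fit, this count was no larger than the background. Fars2 stood at 29, 22.9, 25.9, 28.1 and 35.2 CPM with doxycycline, against 25.5, 20.4, 20.6, 26.6 and 29.2 CPM untreated, higher in each of the 5 animals. It changed by 0.21 ± 0.04 (edgeR with animals as blocks, adjusted p = 0.00316), and Qars by 0.15 ± 0.03 (adjusted p = 0.00449). No member was called in the blocked fits at 6, 18 or 48 h of differentiation, with 3.67%, 0.883% and 4.15% of all genes called. At 48 h of differentiation the 19 cytosolic members had log2 fold changes between 0 and 0.12, and Rars, the highest, had an adjusted p of 0.0792 in the blocked edgeR fit.

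The interaction of doxycycline with age in stem cell medium called 0 members without blocks, where 0% of genes were called, and 5 members and 8.83% of all genes had an unadjusted p under 0.05 by edgeR. With animals as blocks 4 were called, among 3.43% of all genes in either direction. Eprs (0.11), Iars (0.12) and Lars (0.14) had a higher effect in old cells, and Fars2 a lower one (-0.26 ± 0.06, edgeR with animals as blocks, adjusted p = 0.0266). Leaving out 1 animal at a time moved this count between 0 and 9. The interaction of doxycycline with medium in old cells called no member, with or without blocks (0.102% and 0.00566% of all genes called), and 2 members and 1768 of all 17657 genes had an unadjusted p under 0.05 by edgeR without blocks.

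Lars2, the mitochondrial leucyl enzyme, is given apart because its libraries spread widely within groups. Lars2 stood at 2760, 295, 424 and 505 CPM in old cells at 6 h with doxycycline in stem cell medium. It stood at 1470, 149, 1740 and 1440 CPM in old cells with doxycycline at 48 h of differentiation. In untreated cells at 18 h in stem cell medium it ran between 332 and 1090 CPM in the 4 old libraries, against 1260, 1180, 1270, 1080 and 991 CPM in young cells. In the groups with doxycycline named here no other member spread this widely.

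Gm42418, a feature known to overlap ribosomal RNA sequence, rose with Lars2 in some groups and not in others, and no correlation was computed. In the library of 2760 CPM Lars2 it stood at 19300 CPM, and in that of 295 CPM Lars2, of the same group, at 2100 CPM. In untreated young cells at 48 h of differentiation the order was the opposite for replicates 1 and 3. Replicate 1 had 586 CPM Lars2 with 15000 CPM Gm42418, and replicate 3 had 1240 CPM Lars2 with 10500 CPM Gm42418. Lars2 passed the edgeR test in none of the comparisons made here, with an adjusted p of 0.0983 as the lowest, and its values are left out of the sums of mitochondrial members.

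**Figure D5:**
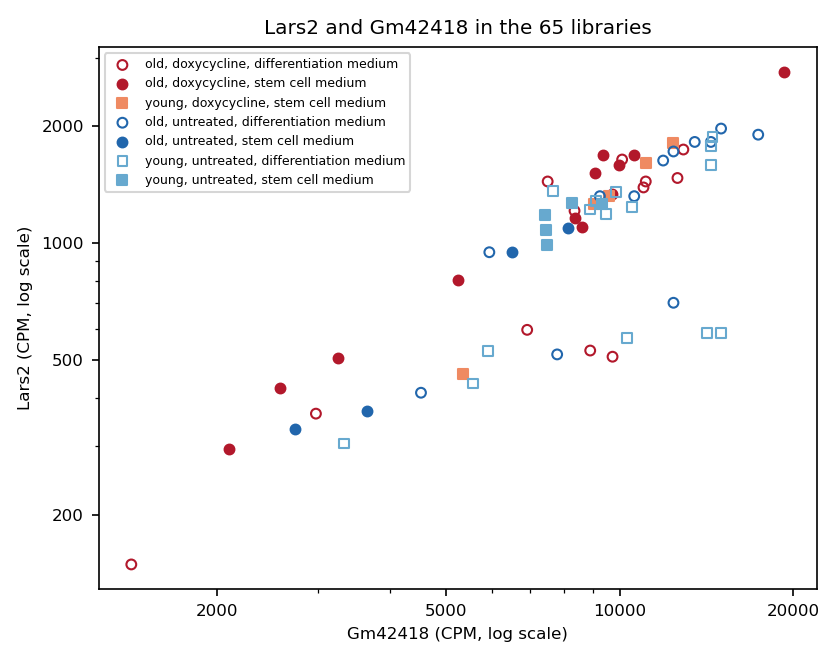
CPM of Lars2 (vertical axis) against CPM of Gm42418 (horizontal axis), both on log scales, 1 point per library for 65 libraries, with colours for age and doxycycline and open symbols for differentiation medium. The points rise together along a band, and the libraries that lie below the band are mostly from differentiation medium.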

How the data were processed

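Poly(A) RNA of 65 libraries was sequenced with a stranded kit, per the labels' protocols. Per the submitters' processing notes, the build was mm10, and Subread, STAR 2.7.10b, DESeq2 1.40.1, SAMtools and Trim Galore 0.6.6 were used; the options and the strand setting of the counting are not given in the sources used here. The authors deposited 1 table of whole-number counts per gene, used for all levels and tests, and 1 of variance-stabilised log2 values, used for an alternative. Values of 2 were more frequent (75644) than values of 1 (19963), so most read pairs added 2 counts, and precision is lower than the totals imply. Of 31057 features, 30934 had a GENCODE M21 name. No 2 libraries held identical values.

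Members and gene lists were chosen with earlier results of these data known. Within each comparison, counts were filtered (filterByExpr, minimum count 10), scaled by TMM and tested with edgeR 4.0.16 (quasi-likelihood, robust; R 4.3.3), with Benjamini-Hochberg adjustment over all genes tested and a threshold of 0.05. Fold changes are on the log2 scale, as the group named first over the other. A standard error is the fold change over the square root of its F statistic. Levels are CPM with TMM factors over all libraries. Named members are, per comparison, up to 3 called members per compartment and direction with the largest change, and called members against the trend of the compartment; other names were added for contrast after their values were seen. Replicate numbers mark the same animal within an age. Over 18 comparisons and 11933 genes, deviations of same-animal libraries from their group means correlated with medians of 0.37 to 0.73. The lowest value of a single pair was 0.13. For different animals the median was at most -0.07, but deviations cancel within a group, which by itself tends to make these values negative. Because the animals were shared, the fit with animals as blocks is given where it changed a call. Alternatives were the animal block, sex as a covariate (age), DESeq2 1.42.0, limma 3.58.1 on the deposited log2 values, RLE scaling, no filter, and each animal left out. The test script was checked on simulated counts. Leaving out animals in the blocked fits, and medians without Lars2, were chosen after seeing the data. Cultures of 1 animal are the replicates, and p-values of the fits without blocks measure the spread between animals. With animals as blocks, p-values measure how far the difference within an animal varies over the animals.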

Additional observations from a re-analysis of the deposited data

Results flagged for a closer look

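In 13 of 255 groups of 4 or 5 libraries examined, over the 15 members given library by library and the sums of both compartments, the highest or lowest library stood far from the rest; chance gives about 1 in 20. The figure given for each is the gap to the nearest library over the range of the group. In old cells with doxycycline at 6 h in stem cell medium these were Vars (0.88, highest 279 CPM) and Lars2 (0.915, highest 2760 CPM), and at 18 h Dars (0.928, highest 170 CPM). Untreated young cells at 18 h in stem cell medium gave Ears2 (0.727, highest 16.1 CPM).

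At 6 h of differentiation, untreated old cells gave Dars (0.944, highest 102 CPM). Untreated young cells gave Nars (0.747, highest 131 CPM), Qars (0.784, highest 79.1 CPM), Ears2 (0.877, highest 4.62 CPM) and Lars2 (0.874, lowest 305 CPM). The library of young replicate 3 was the distant one for Nars, Ears2 and Lars2.

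At 18 h of differentiation untreated old cells gave Ears2 (0.926, highest 8.3 CPM). At 48 h, old cells with doxycycline gave Aars (0.831, highest 175 CPM), and untreated old cells gave Nars (0.874, 115 CPM) and the cytosolic sum (0.868, 1640 CPM).

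The effect of 18 h of differentiation differed with age, by the interaction term of the edgeR fit, for Nars (-0.34), Aars (-0.25) and Sars (-0.24). Both media came from the same animals, and with animals as blocks the Sars call was lost (edgeR, adjusted p = 0.0742).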

How the results depend on the processing

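Counts of called members kept within 1.5 times of the reported count under RLE scaling, no filter, DESeq2, limma, the animal block, sex and the omission of single animals, except as follows. Doxycycline in stem cell medium called 0 members without the animal block and 3 with it in old cells, and 0 and 2 in young cells. Without single animals the unblocked young count ran between 0 and 1, and the blocked counts between 1 and 5 in old and 2 and 4 in young cells. The blocked count for doxycycline at 48 h of differentiation ran between 0 and 2. The interaction of doxycycline with age called 0 members without and 4 with the block, and between 0 and 9 in the blocked fit without single animals. Age at 6 h of differentiation called 0 members, 2 by DESeq2, and between 0 and 1 without single animals. Age at 18 h called 2 members but 1 under RLE scaling, limma or sex as a covariate (without the filter it called 2, 1 higher and 1 lower, and Farsa was lost), and between 1 and 2 without single animals. Age at 48 h ran between 4 and 9, and its interaction with differentiation at 18 h between 1 and 3. No named member changed direction. Of the named calls, 31 were lost and 540 held without a single animal, 2 were lost without the filter, and 1 each under limma, RLE scaling, sex and the animal block (Sars, above); none of 118 was lost under DESeq2. The cause of these changes was not tested. The depth was enough to count every member in every library, with less precision for those of low count such as Ears2. The number of animals, 4 and 5, limits the comparisons.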
